A study of Mus musculus with 19 samples.

Results

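The genes described here encode the DNA replication machinery of the mouse: 49 genes named by symbol, from the proteins that license replication origins to the enzymes that supply nucleotides and the chaperone that packs new DNA. All 49 symbols were found among the 47643 genes of the deposited expression table, and all 49 passed the filter on low values that left 13520 genes for testing. They were measured by RNA sequencing in 19 libraries of mouse embryonic cortex, all from embryos at E14.5. The libraries fell into 4 groups: 4 from dorsal cortex of GFAP::Cre; SmoM2 mutants, 6 from dorsal cortex of wildtype controls, 4 from medial cortex of the mutants and 5 from medial cortex of the controls. SmoM2 is a constitutively active form of Smoothened, the transmembrane protein that relays Hedgehog signalling, and GFAP::Cre is a Cre recombinase driven by GFAP sequence, which in embryonic cortex acts in radial glia and is inherited by the cells they produce. The labels give no allele or Cre for the controls beyond wildtype, and do not say which GFAP construct was used. They do not state that libraries of a group came from separate embryos, so the p-values rest on library-to-library spread, part of which may be technical. The tissue was labelled dorsal or medial cortex, while the extraction text speaks of medial and lateral pieces.

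Every cell that divides must copy its genome exactly once, and it prepares for this in steps. Before S phase, the origin recognition complex with Cdc6 and Cdt1 loads the ring-shaped MCM helicase onto origins, and geminin blocks Cdt1 afterwards so that no origin is loaded again. Cdc7 with Dbf4, and Cdk2 with the E cyclins, then recruit Cdc45 and GINS to switch the helicase on, and polymerases, sliding clamp, clamp loader, flap nuclease and ligase build the new strands. Many of these genes are transcribed at the entry into S phase under E2F factors, and in embryonic cortex they are known for their high expression in the cycling progenitors of the ventricular and subventricular zones. In bulk tissue, a larger share of cycling cells and more RNA per cycling cell cannot be told apart.

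Promoter stretches are shown for the licensing and MCM genes, the roles in which E2F-type letters were found most often. RefSeq promoters of assembly GRCm38.p6, running from 250 bases before to 50 bases after each start, were matched for 40 of the 49 genes. The letters searched, on both strands, were TTTCCCGC, TTTCGCGC, TTTGCCGC and TTTGGCGC. Each line gives a stretch 5′ to 3′ along the gene's strand, with a match in capitals. In Mcm5 the capitals cover a pair of overlapping matches, 1 on each strand.
Orc1, chr4:108579416-108579445, plus strand: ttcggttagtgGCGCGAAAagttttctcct
Cdc6, chr11:98908002-98908031, plus strand: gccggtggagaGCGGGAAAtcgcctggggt
Cdt1, chr8:122568035-122568064, plus strand: gggaactaccttTTTGGCGCcatggcgcaa
Mcm3, chr1:20820275-20820304, minus strand: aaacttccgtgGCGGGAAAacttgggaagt
Mcm5, chr8:75109349-75109378, plus strand: caagaacTTTCGCGCCAAAacgtccagcct
Mcm6, chr1:128359734-128359763, minus strand: gattggacgggTTTGGCGCgaagtagctca
Mcm7, chr5:138171849-138171878, minus strand: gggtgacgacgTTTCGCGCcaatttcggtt

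Some genes had more than 1 promoter, and a match in any of them counted for the gene. At least 1 of these E2F-type octamers was found for 14 of the 40 genes (35%). This compares with 477 of 9979 tested genes with a promoter (4.78%) and 704 of all 27025 genes with one (2.60%). Of the genes with a promoter, the octamers were found for 4 of 5 MCM genes and 3 of 5 licensing genes. They were found for none of the 5 nucleotide supply genes or the 2 chromatin assembly genes. The letters CCAAT, on either strand, were found for 24 of 40 genes (60%), against 43.5% of tested genes and 41.1% of all genes with a promoter. The cell cycle homology letters TTTGAA or TTCGAA were found for 9 of 40 genes (22.5%), against 15.7% of tested genes and 21.7% of all genes with a promoter. Members with and without an E2F-type octamer changed by similar amounts in the mutants: the median log2 change was 0.70 with and 0.69 without in dorsal cortex, and 0.62 with and 0.64 without in medial cortex. A match is a description of letters, and its absence says only that these letters are not in this window.

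All 49 listed replication genes were higher in the SmoM2 mutants. The list was written with earlier results of these data known. In dorsal cortex all 49 genes were higher in mutants than in controls at an adjusted p under 0.05 (limma on log2(TPM + 1), where TPM is a length-scaled share of all transcripts). Of all genes tested, 9.93% were higher and 27.6% lower, 37.5% in all. The 49 changes ran from 0.24 for Gins4 to 1.22 for Rrm2 on the log2 scale, with a median of 0.69, beside a median of −0.10 over all genes tested. In medial cortex all 49 were again higher. Of all genes tested there, 9.44% were higher and 30.2% lower, 39.6% in all. The medial changes ran from 0.18 for Gins4 to 1.04 for Rrm2, with a median of 0.62 beside −0.11 over all genes. At least a doubling (a log2 change of 1) was reached by 5 genes in dorsal cortex and 1 gene in medial cortex. Mutant and control libraries did not overlap for 48 of the 49 genes in dorsal cortex, and for 47 in medial cortex, always with mutants higher. Of all genes, 7.25% were higher and 17.6% lower without overlap in dorsal cortex, and 7.63% and 22.7% in medial cortex. The exceptions were Pold2 in both regions and Cdc7 in medial cortex. Genotype and sex were partly confounded, since by Xist and Ddx3y all mutant libraries were male while some controls were female. With embryo sex as a covariate, which only the controls could inform, 48 genes were higher in dorsal and 47 in medial cortex. Of all genes, 8.72% and 7.93% were higher in that fit.

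**Figure D1:**
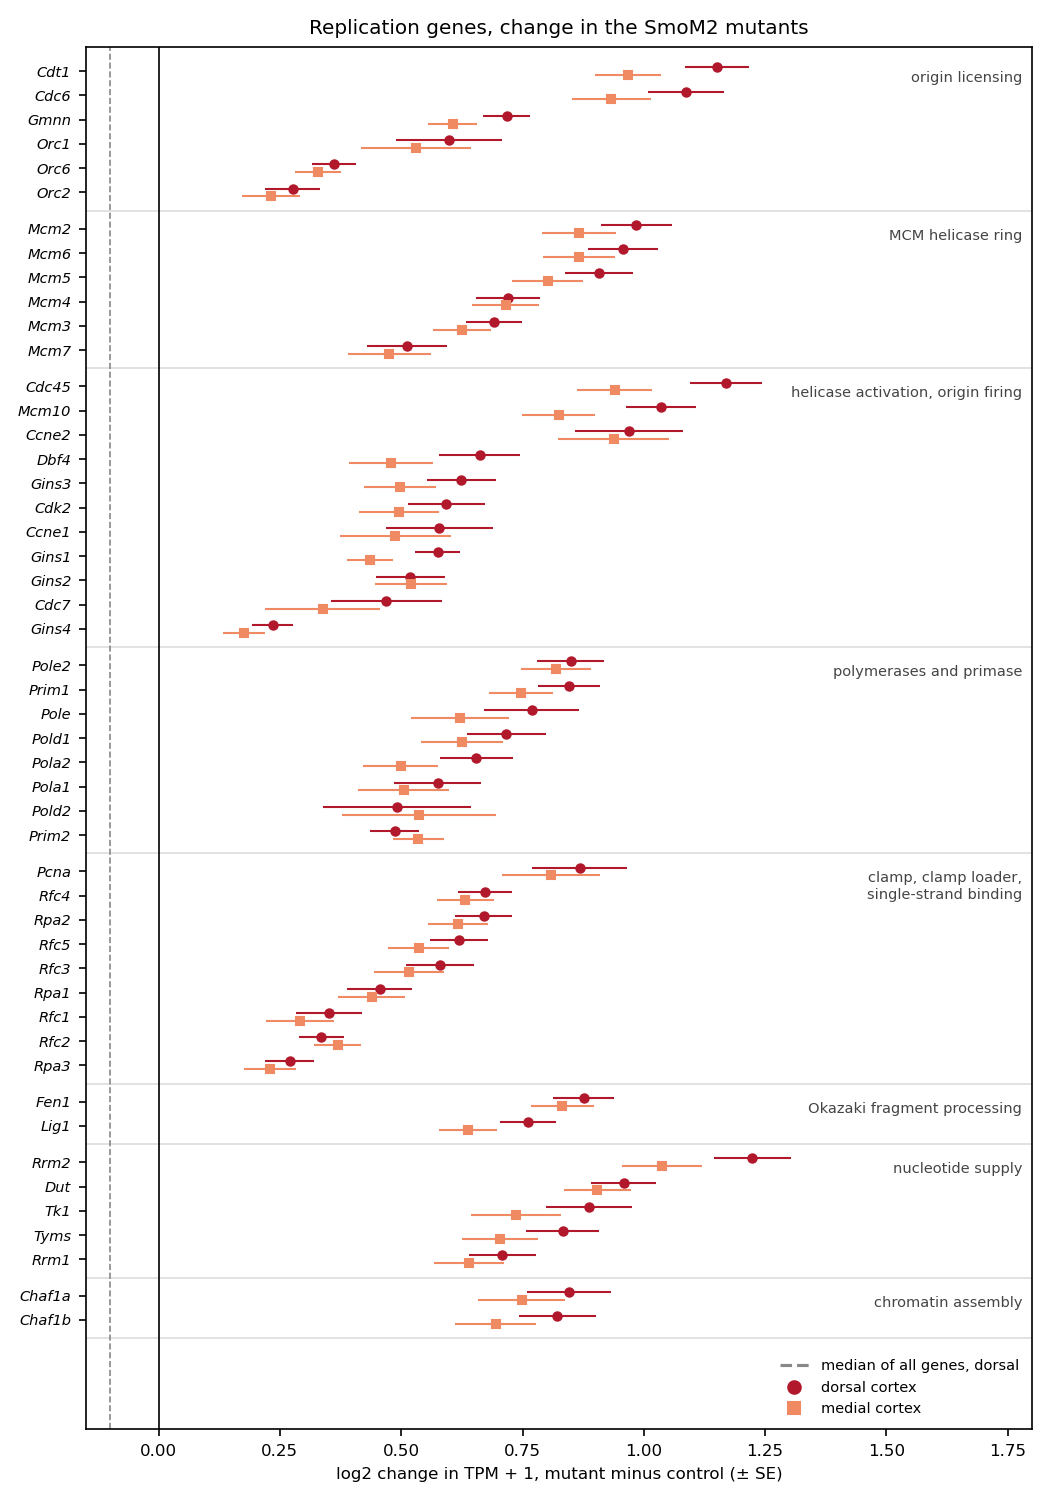
Log2 change in TPM + 1, mutant minus control (± SE), of the 49 replication genes grouped by role, in dorsal cortex (circles) and medial cortex (squares), with the median of all genes in dorsal cortex as a dashed line. All points lie to the right of 0, from Gins4 (0.24 dorsal, 0.18 medial) to Rrm2 (1.22 dorsal, 1.04 medial).

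The labels and tissue were checked on the Hedgehog pathway genes Gli1, Ptch1 and Smo and on marker lists. The Hedgehog target Gli1 was higher in mutants by 4.51 log2 units in dorsal and 4.74 in medial cortex, and Ptch1, the Hedgehog receptor and a target of the pathway, by 3.18 and 3.45. Smo, which the transgene encodes, was higher by 0.61 in dorsal and 0.47 in medial cortex. Cdk6, a kinase of G1 phase that is given beside them and does not itself check the labels, was higher by 1.51 and 2.25. Radial glia, intermediate progenitor and neuron markers were all above 0 TPM in every library. Libraries of a group correlated at r from 0.9748 to 0.993, and expressed genes per library numbered from 17357 to 18670. Choroid plexus markers summed to 963 TPM in control medial library 4, against at most 63.4 TPM in the other control medial libraries and 170 TPM in mutant medial library 3. Histone genes took 10.5 to 13.001% of TPM in mutant dorsal and 12.8 to 12.9% in mutant medial libraries, against 6.17 to 7.65% in control dorsal and 7.13 to 9.05% in control medial libraries. Rescaling to the median gene moved the share of called genes that were higher to 52.3% in dorsal and 49.1% in medial cortex, compared with 26.5% and 23.8% on the deposited scale. On that rescaling the median change of the 49 genes was 0.78 in dorsal and 0.72 in medial cortex, and all 49 were again higher in both.

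Origin licensing genes were all higher in the mutants, with the loaders Cdt1 and Cdc6 changed most and the origin recognition subunit Orc2 least. Cdt1, which brings the MCM ring to origins, had 87.9, 83.0, 102 and 78.7 TPM in mutant dorsal libraries, against a lowest of 37.8, a median of 38.4 and a highest of 41.4 TPM in control dorsal libraries. In medial cortex Cdt1 had 94.97, 115, 112 and 107 TPM in mutants, against 53.8, 59.4, 52.9, 56.2 and 50.02 TPM in controls. Every mutant library lay above every control library in both regions. The log2 change of Cdt1 was 1.15 ± 0.07 (SE) in dorsal cortex (adjusted p = 1.21e-09) and 0.97 ± 0.07 in medial cortex (adjusted p = 2.43e-08). Cdt1 lies on chromosome 8 at 122568015 to 122573554 (plus strand, GENCODE M21 annotation of GRCm38), where a second protein-coding model, Gm20388, overlaps it on the same strand, so its reads may be shared.

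Orc2, a subunit of the origin recognition complex, had 77.5, 68.7, 86.8 and 73.4 TPM in mutant dorsal libraries, against a lowest of 58.6, a median of 63.3 and a highest of 68.5 TPM in control dorsal libraries. In mutant medial libraries Orc2 stood at 83.1, 90.4, 94.98 and 89.3 TPM, against 77.4, 77.7, 76.8, 76.6 and 71.3 TPM in control medial libraries. The groups came close without overlapping, and the change was 0.28 ± 0.06 in dorsal cortex (adjusted p = 0.00103) and 0.23 ± 0.06 in medial cortex (adjusted p = 0.00454). The other licensing genes lay between. Cdc6, the ATPase that works with Cdt1, changed by 1.09 in dorsal and 0.93 in medial cortex. Geminin (Gmnn), the inhibitor of Cdt1, changed by 0.72 and 0.61. Orc1 changed by 0.60 and 0.53, and Orc6 by 0.36 and 0.33. Orc1 was the lowest of the 49 genes in mean TPM, at 7.71 TPM in mutant dorsal and 4.70 TPM in control dorsal libraries.

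The 6 genes of the MCM ring, the replicative helicase, were all higher in both regions. Mcm2 had 236, 193, 259 and 206 TPM in mutant dorsal libraries, against a lowest of 102, a median of 112 and a highest of 122 TPM in control dorsal libraries. Its medial values were 228, 245, 258 and 257 TPM in mutants, against 133, 147, 136, 141 and 120 TPM in controls. Mcm2 libraries of the 2 genotypes were far apart, and the change was 0.98 ± 0.07 in dorsal cortex (adjusted p = 2.50e-08) and 0.87 ± 0.08 in medial cortex (adjusted p = 2.52e-07). Mcm7, the subunit that changed least, had 229, 204, 284 and 231 TPM in mutant dorsal libraries, against a lowest of 152, a median of 165 and a highest of 186 TPM in control dorsal libraries. Medial Mcm7 stood at 240, 269, 317 and 287 TPM in mutants, against 200, 192, 190, 214 and 199 TPM in controls. No control library reached a mutant one, and the change was 0.51 ± 0.08 in dorsal (adjusted p = 0.000121) and 0.48 ± 0.09 in medial cortex (adjusted p = 0.000326). The annotation places the microRNA genes Mir106b, Mir93 and Mir25 within Mcm7 on the same strand (chromosome 5, 138164583 to 138172422, minus strand). Mcm6 changed by 0.96 in dorsal and 0.87 in medial cortex, Mcm5 by 0.91 and 0.80, Mcm4 by 0.72 and 0.72, and Mcm3 by 0.69 and 0.62.

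The 6 MCM transcripts, whose proteins sit in the ring in equal number, stayed within a narrow range of levels. Within a library the highest MCM gene had a median of 1.58 times the TPM of the lowest in mutant dorsal and 1.70 times in control dorsal libraries, and 1.53 times in mutant medial and 1.67 times in control medial libraries. The 4 GINS genes, whose proteins also form a complex in equal number, were spread more widely, with a median fold of 5.87 in mutant dorsal and 7.42 in control dorsal libraries. For GINS the ranges did not overlap, at 5.41 to 6.41 in mutant dorsal and 6.57 to 7.97 in control dorsal libraries. They were also apart in medial cortex, at 5.04 to 5.81 in mutants and 6.46 to 7.80 in controls. The RPA fold was 1.97 in mutant dorsal and 2.60 in control dorsal libraries, and the RFC fold 2.76 and 2.70. RPA ranges were apart too, at 1.60 to 2.22 in mutant dorsal and 2.26 to 2.73 in control dorsal libraries. In medial cortex they were 1.34 to 1.66 in mutants and 1.83 to 2.10 in controls. MCM and RFC ranges overlapped between the genotypes in both regions. Differences in these folds were not tested.

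**Figure D2:**
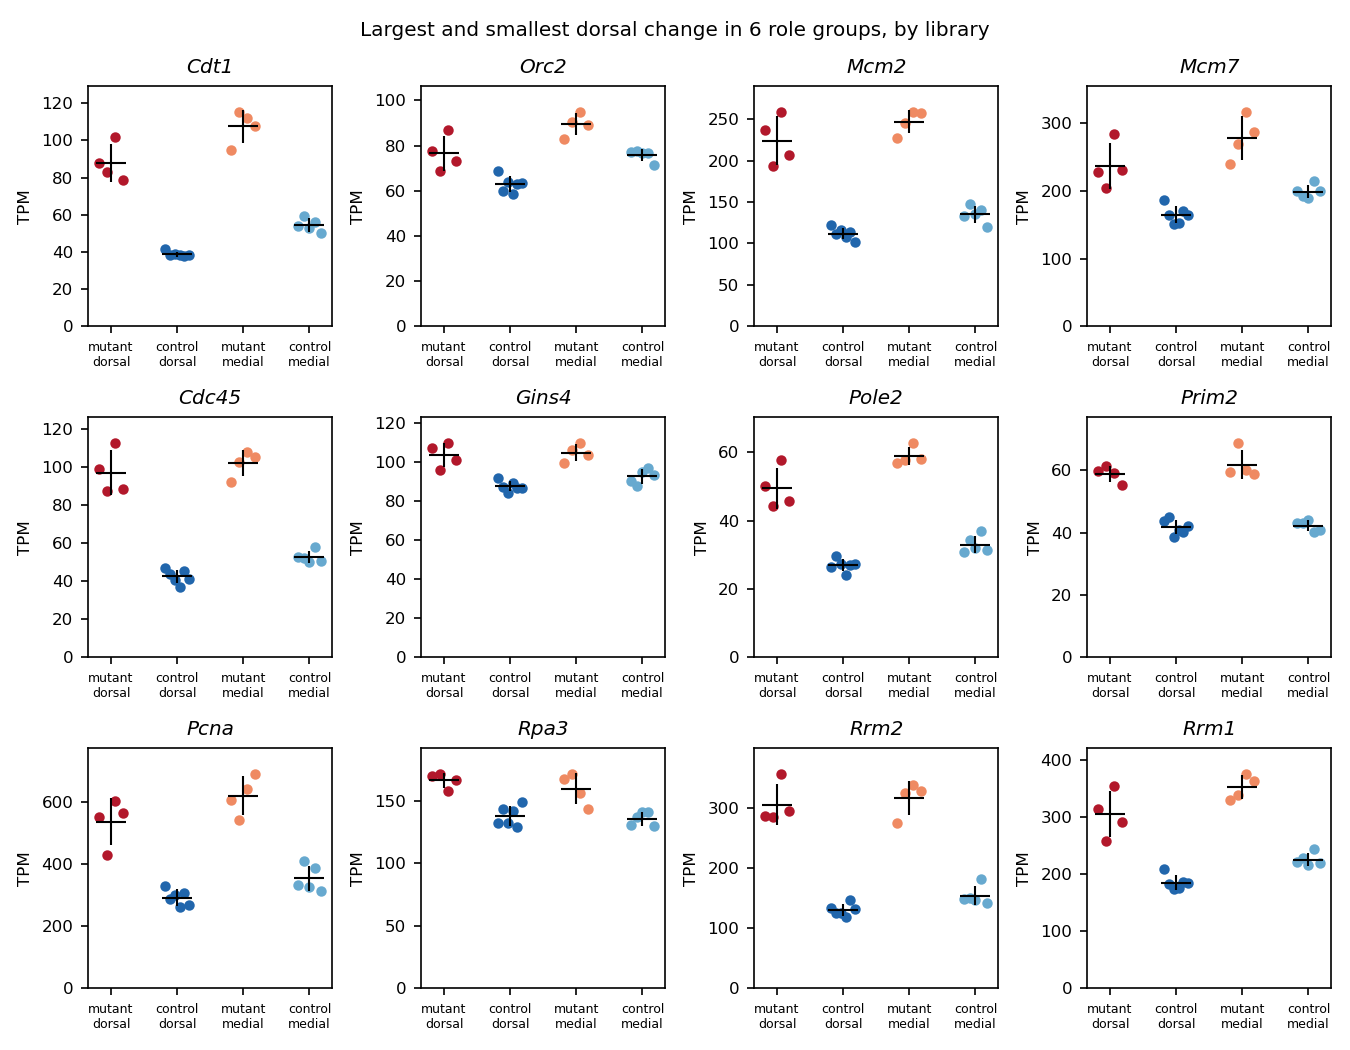
TPM of the genes with the largest and the smallest dorsal change in 6 role groups, with 1 point per library and the mean ± SD as black lines, for mutant dorsal (n = 4), control dorsal (n = 6), mutant medial (n = 4) and control medial (n = 5). Mutant points lie above the control points of the same region in all 12 panels, by a wide gap for Cdt1, Cdc45 and Rrm2 and by a narrow one for Orc2, Gins4 and Rpa3.

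Among the genes that switch the helicase on, Cdc45 changed most and the GINS subunit Gins4 least of all 49. Cdc45, which rides with MCM and GINS as the active helicase, had 99.1, 87.3, 113 and 88.6 TPM in mutant dorsal libraries, against a lowest of 36.8, a median of 42.6 and a highest of 47.1 TPM in control dorsal libraries. Its medial values were 92.2, 103, 108 and 105 TPM in mutants, against 52.7, 52.0, 50.3, 57.8 and 50.5 TPM in controls. The gap between the genotypes was wide in both regions, with a change of 1.17 ± 0.07 in dorsal (adjusted p = 4.88e-09) and 0.94 ± 0.08 in medial cortex (adjusted p = 1.02e-07). Gins4 had 107, 95.8, 110 and 101 TPM in mutant dorsal libraries, against a lowest of 84.0, a median of 87.0 and a highest of 91.7 TPM in control dorsal libraries. In medial cortex Gins4 had 99.3, 106, 110 and 103 TPM in mutants, against 90.0, 87.4, 94.9, 96.8 and 93.2 TPM in controls. Its groups stood close together without overlap, and the change was 0.24 ± 0.04 in dorsal (adjusted p = 0.000298) and 0.18 ± 0.04 in medial cortex (adjusted p = 0.00376).

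Mcm10, a factor needed to activate loaded helicases, changed by 1.04 in dorsal and 0.82 in medial cortex. The other GINS genes changed by 0.62 and 0.50 (Gins3), 0.58 and 0.44 (Gins1), and 0.52 and 0.52 (Gins2). Dbf4, the activating subunit of the Cdc7 kinase, changed by 0.66 in dorsal and 0.48 in medial cortex, and Cdc7 itself by 0.47 and 0.34. Cdc7 had 46.7, 52.3, 59.5 and 56.9 TPM in mutant dorsal libraries, against a lowest of 32.4, a median of 38.2 and a highest of 44.9 TPM in control dorsal libraries, without overlap. It had 43.4, 57.9, 62.3 and 57.9 TPM in mutant medial libraries, against 40.8, 44.4, 39.3, 53.1 and 39.8 TPM in control medial libraries. Its medial groups overlapped, since mutant library 1 lay below 2 of the controls. The adjusted p for Cdc7 in medial cortex was 0.0299, and 0.114 with embryo sex as a covariate. It was 0.0602, 0.0682 or 0.0692 without control medial library 2, 4 or 6, and 0.0745, 0.1002 or 0.0740 without mutant medial library 2, 3 or 4. Of the E cyclins, which activate Cdk2 at the entry into S phase, Ccne2 changed by 0.97 and 0.94, and Ccne1 by 0.58 and 0.49. Cdk2 changed by 0.59 in dorsal and 0.49 in medial cortex.

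All 8 polymerase and primase genes were higher in the mutants. Pole2, the second subunit of the leading-strand polymerase epsilon, had 50.2, 44.3, 57.6 and 45.9 TPM in mutant dorsal libraries, against a lowest of 24.2, a median of 27.1 and a highest of 29.6 TPM in control dorsal libraries. Medial Pole2 was at 56.8, 57.8, 62.8 and 58.2 TPM in mutants, against 30.7, 34.4, 31.9, 36.8 and 31.3 TPM in controls. The genotypes did not overlap, and Pole2 changed by 0.85 ± 0.07 in dorsal (adjusted p = 6.28e-08) and 0.82 ± 0.07 in medial cortex (adjusted p = 2.45e-07). A second protein-coding model, Gm49384, overlaps Pole2 on the same strand. Prim2, the large primase subunit, had 59.7, 61.2, 59.1 and 55.2 TPM in mutant dorsal libraries, against a lowest of 38.6, a median of 41.4 and a highest of 45.0 TPM in control dorsal libraries. In medial cortex Prim2 had 59.5, 68.8, 59.95 and 58.8 TPM in mutants, against 43.1, 42.9, 44.1, 40.3 and 40.8 TPM in controls. Here too no library of one genotype reached the other, and Prim2 changed by 0.49 ± 0.05 in dorsal (adjusted p = 9.91e-07) and 0.54 ± 0.05 in medial cortex (adjusted p = 8.15e-07).

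Prim1, the catalytic primase subunit, changed by 0.85 in dorsal and 0.75 in medial cortex. The catalytic subunits of polymerase epsilon (Pole), delta (Pold1) and alpha (Pola1) changed by 0.77, 0.72 and 0.58 in dorsal cortex and by 0.62, 0.62 and 0.51 in medial cortex. Pola2, the second subunit of polymerase alpha, changed by 0.65 and 0.50. Pold2, the second subunit of polymerase delta, had 78.6, 64.6, 93.1 and 78.6 TPM in mutant dorsal libraries, against a lowest of 47.1, a median of 49.5 and a highest of 72.9 TPM in control dorsal libraries. The groups overlapped, since control libraries 1 and 5 lay above mutant library 2. Pold2 changed by 0.49 ± 0.15 (adjusted p = 0.0169), and the adjusted p was 0.0738 without mutant dorsal library 3 and 0.0895 with embryo sex as a covariate. Medial Pold2 was at 71.3, 75.7, 94.4 and 86.8 TPM in mutants, against 53.5, 47.8, 55.4, 78.96 and 48.6 TPM in controls, where control library 5 lay above mutant libraries 1 and 2. In medial cortex Pold2 changed by 0.54 (adjusted p = 0.0118), and the adjusted p with embryo sex as a covariate was 0.0947. By Xist and Ddx3y all mutant libraries were male, and controls 2, 3 and 4 were female.

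The sliding clamp, its loader and the single-strand binding proteins were higher throughout. Pcna, the clamp that holds polymerases on DNA, had the highest mean TPM of the 49 genes in all 4 groups. It stood at 552, 429, 606 and 565 TPM in mutant dorsal libraries, against a lowest of 262, a median of 295 and a highest of 332 TPM in control dorsal libraries. Medial Pcna was at 609, 542, 645 and 693 TPM in mutants, against 334, 410, 328, 388 and 315 TPM in controls. All mutant libraries were above all controls, and Pcna changed by 0.87 ± 0.10 in dorsal (adjusted p = 2.46e-06) and 0.81 ± 0.10 in medial cortex (adjusted p = 1.05e-05). Rpa3, the smallest subunit of the single-strand binding protein, had 170, 171, 158 and 166 TPM in mutant dorsal libraries, against a lowest of 129, a median of 137 and a highest of 149 TPM in control dorsal libraries. In medial cortex Rpa3 had 167, 172, 156 and 143 TPM in mutants, against 130, 137, 141, 141 and 130 TPM in controls. The medial groups nearly touched, and Rpa3 changed by 0.27 ± 0.05 in dorsal (adjusted p = 0.000491) and 0.23 ± 0.05 in medial cortex (adjusted p = 0.00216). Rpa2 changed by 0.67 and 0.62, and Rpa1 by 0.46 and 0.44. Of the clamp loader, Rfc4 changed by 0.67 and 0.63, Rfc5 by 0.62 and 0.54, Rfc3 by 0.58 and 0.52, the large subunit Rfc1 by 0.35 and 0.29, and Rfc2 by 0.34 and 0.37.

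Both enzymes that finish Okazaki fragments were higher. Fen1, the flap nuclease, had 179, 155, 196 and 152 TPM in mutant dorsal libraries, against a lowest of 85.8, a median of 92.9 and a highest of 97.5 TPM in control dorsal libraries. Its medial values were 174, 203, 201 and 193 TPM in mutants, against 106, 107, 108, 114 and 104 TPM in controls. The gap was wide, and Fen1 changed by 0.88 ± 0.06 in dorsal (adjusted p = 1.62e-08) and 0.83 ± 0.07 in medial cortex (adjusted p = 6.70e-08). Lig1, the ligase that seals the fragments, had 92.1, 78.8, 93.6 and 81.7 TPM in mutant dorsal libraries, against a lowest of 48.5, a median of 49.3 and a highest of 57.9 TPM in control dorsal libraries. Medial Lig1 was at 88.0, 97.8, 99.0 and 98.1 TPM in mutants, against 58.4, 62.4, 62.5, 62.8 and 59.6 TPM in controls. The groups were apart in both regions, with a change of 0.76 ± 0.06 in dorsal (adjusted p = 2.47e-08) and 0.64 ± 0.06 in medial cortex (adjusted p = 3.95e-07).

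The nucleotide supply genes included the gene with the largest change, Rrm2. Rrm2, the S-phase subunit of ribonucleotide reductase, had 286, 284, 356 and 294 TPM in mutant dorsal libraries, against a lowest of 118, a median of 129 and a highest of 146 TPM in control dorsal libraries. In medial cortex Rrm2 had 274, 325, 337 and 328 TPM in mutants, against 148, 150, 146, 181 and 142 TPM in controls. Mutants stood far above controls in both regions, with a change of 1.22 ± 0.08 in dorsal (adjusted p = 5.43e-09) and 1.04 ± 0.08 in medial cortex (adjusted p = 8.30e-08). Rrm1, the large subunit of the same enzyme, had 315, 258, 354 and 291 TPM in mutant dorsal libraries, against a lowest of 174, a median of 184 and a highest of 209 TPM in control dorsal libraries. Medial Rrm1 was at 330, 339, 376 and 362 TPM in mutants, against 221, 228, 215, 243 and 219 TPM in controls. Rrm1 too was apart between the genotypes, by 0.71 ± 0.07 in dorsal (adjusted p = 4.90e-07) and 0.64 ± 0.07 in medial cortex (adjusted p = 3.55e-06). The dUTPase Dut changed by 0.96 and 0.90, thymidine kinase Tk1 by 0.89 and 0.74, and thymidylate synthase Tyms by 0.83 and 0.70.

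Chromatin assembly factor 1, which places histones on newly made DNA, was higher in both of its listed subunits. Chaf1a had 90.6, 86.6, 112 and 89.1 TPM in mutant dorsal libraries, against a lowest of 45.9, a median of 51.4 and a highest of 59.99 TPM in control dorsal libraries. In medial cortex Chaf1a had 92.2, 110, 119 and 121 TPM in mutants, against 63.7, 67.3, 62.2, 72.2 and 60.3 TPM in controls. The genotypes did not overlap, and Chaf1a changed by 0.85 ± 0.09 in dorsal (adjusted p = 7.45e-07) and 0.75 ± 0.09 in medial cortex (adjusted p = 6.26e-06). Chaf1b had 44.5, 37.7, 44.5 and 33.7 TPM in mutant dorsal libraries, against a lowest of 18.9, a median of 22.8 and a highest of 23.6 TPM in control dorsal libraries. Medial Chaf1b was at 47.0, 47.9, 49.9 and 41.3 TPM in mutants, against 29.5, 30.6, 27.9, 27.7 and 26.1 TPM in controls. Chaf1b was likewise apart in both regions, with a change of 0.82 ± 0.08 in dorsal (adjusted p = 4.06e-07) and 0.69 ± 0.08 in medial cortex (adjusted p = 6.05e-06).

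Genes paired by function did not all change by the same amount. The pairs were subunits of the same complex or enzyme, the antagonists Cdt1 and Gmnn, the E cyclins Ccne2 and Ccne1, and Mcm10 with the helicase subunit Mcm7. For 14 pairs the log2 ratio of the partners' TPM + 1 was compared between genotypes with a two-sided exact permutation test in each region. Benjamini-Hochberg adjustment ran over the 28 tests. The pairs were chosen with earlier results of these data known. The p-values therefore describe these pairs and are not independent support for unequal changes. The smallest p these group sizes allow is 0.00952 in dorsal and 0.0159 in medial cortex. In all, 15 of the 28 ratios differed at an adjusted p under 0.05, 10 in dorsal and 5 in medial cortex. The ratio of Cdt1 to its inhibitor Gmnn was −0.10 to 0.20 in mutant dorsal libraries, against −0.52 to −0.33 in control dorsal libraries. It ran from 0.08 to 0.24 in mutant medial libraries, against −0.24 to −0.09 in control medial libraries. Thus Cdt1 was below Gmnn in every control library and at about its level or above in the mutants, a difference of 0.43 in dorsal (adjusted p = 0.0333, exact permutation) and 0.36 in medial cortex (adjusted p = 0.0342, exact permutation).

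Rrm2 relative to Rrm1 was −0.14 to 0.14 in mutant dorsal libraries, against −0.65 to −0.34 in control dorsal libraries, a difference of 0.52 (adjusted p = 0.0333, exact permutation). In medial cortex this ratio was −0.27 to −0.06 in mutants, against −0.62 to −0.42 in controls, a difference of 0.40 (adjusted p = 0.0342, exact permutation). Mcm10 relative to Mcm7 differed by 0.52 in dorsal and 0.35 in medial cortex, Rfc4 relative to Rfc1 by 0.32 and 0.34, and Rpa2 relative to Rpa1 by 0.21 and 0.18, all without overlap of the genotypes and past the threshold in both regions. Prim2 relative to Prim1 was lower in mutants by 0.36 in dorsal cortex. Orc1 to Orc2, Gins1 to Gins4, Ccne2 to Ccne1, and Pold1 to Pold2 were higher in dorsal cortex by 0.32, 0.34, 0.39 and 0.23. Mutants and controls overlapped for Ccne2 to Ccne1 and for Pold1 to Pold2. In medial cortex these 5 ratios had adjusted p from 0.0523 to 0.676. Dbf4 to Cdc7, Pola2 to Pola1, Pole2 to Pole, and Chaf1b to Chaf1a missed the threshold in both regions. Whether a ratio's shift differed between the regions was not tested. The 15 calls became 0 without mutant dorsal library 2 or 3, and 8 without control medial library 4 or 6 or any 1 mutant medial library.

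**Figure D3:**
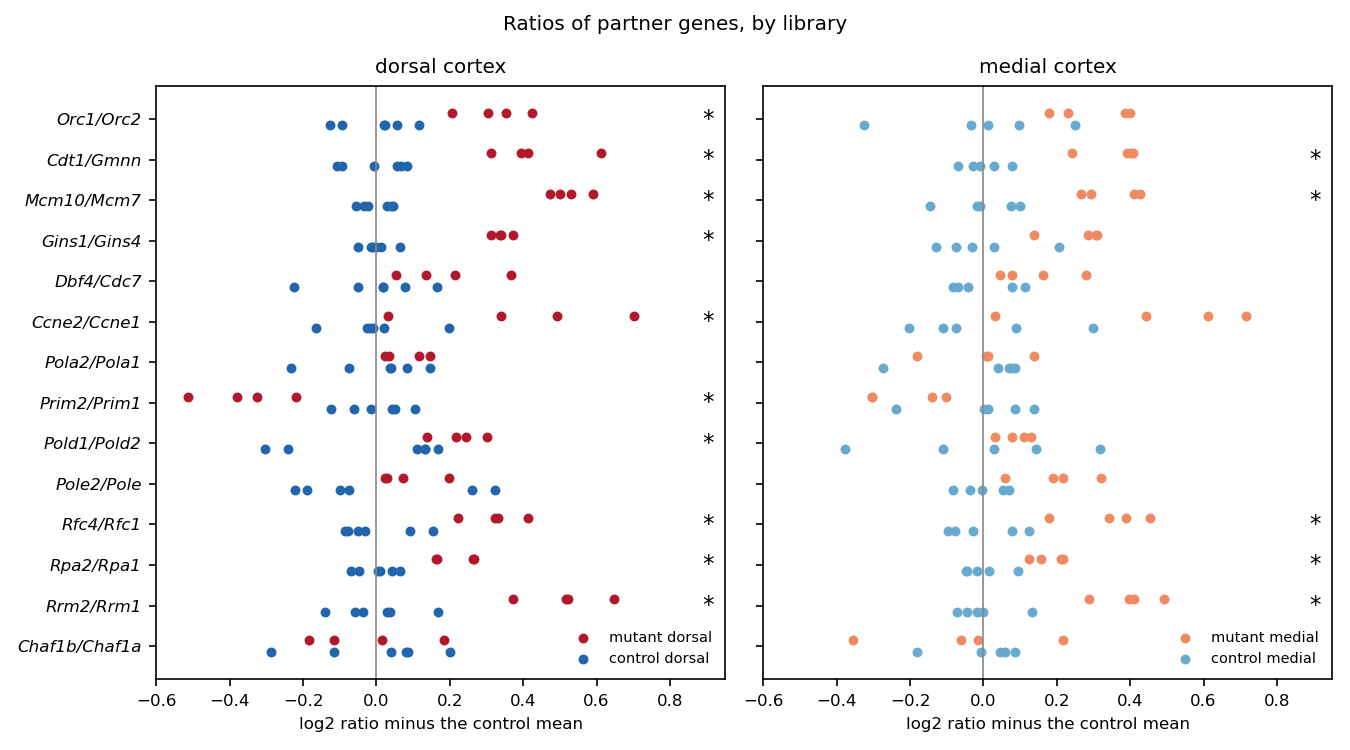
Log2 ratio of 14 pairs of partner genes in every library, minus the control mean of the region, for dorsal cortex on the left and medial cortex on the right, with mutants drawn above controls in each row and an asterisk where the adjusted p of the exact permutation test was under 0.05. Mutant libraries lie to the right of all controls for Cdt1/Gmnn, Mcm10/Mcm7, Rfc4/Rfc1, Rpa2/Rpa1 and Rrm2/Rrm1 in both regions, while Chaf1b/Chaf1a is mixed.

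Listed genes of replication outside the 49 were less uniform. Both lists were written with earlier results of these data known, so the contrast between them is a description and not a test. Of 54 listed genes, 52 had their symbol in the table and were tested. In dorsal cortex 36 were higher, 4 lower and 12 not past the threshold, with a median change of 0.36. Of all genes there, 9.93% were higher and 27.6% lower. In medial cortex 38 were higher, 5 lower and 9 not past the threshold, with a median change of 0.31, beside 9.44% and 30.2% of all genes. After rescaling to the median gene the counts were 40 higher and 2 lower in dorsal, and 40 higher and 3 lower in medial cortex. On that rescaling 15.6% of all genes were higher and 14.2% lower in dorsal, and 16.1% and 16.7% in medial cortex. Among the genes with the smallest adjusted p of those higher in dorsal cortex were Ccna2, the S-phase and mitotic cyclin (0.73), Wdhd1, which ties polymerase alpha to the helicase (0.80), and Uhrf1, which guides maintenance methylation at the fork (0.83). In medial cortex these 3 changed by 0.59, 0.69 and 0.70.

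Subunits and paralogs of the same factors went different ways. Pold4, the smallest subunit of polymerase delta, was lower in mutants by −0.47 in dorsal (adjusted p = 0.00245) and −0.56 in medial cortex (adjusted p = 0.000754), averaging 12.2 TPM in mutant dorsal and 17.1 TPM in control dorsal libraries. It was also lower under all 3 other scalings tried, by −0.35 to −0.40 in dorsal and −0.41 to −0.49 in medial cortex. A second protein-coding model, AC109138.7, overlaps Pold4 on the same strand, and a processed pseudogene, Gm3362, overlaps Rrm2b, so reads of both genes may be shared. Rrm2b, the p53-inducible form of the small ribonucleotide reductase subunit, was lower by −0.34 in both regions (adjusted p = 0.00210 in dorsal and 0.00247 in medial cortex), but with quantile normalization its medial change was −0.18 (adjusted p = 0.0970). Lig3, a ligase of DNA repair and mitochondria, was lower by −0.19 in dorsal and −0.17 in medial cortex, and these calls were lost under all 3 scalings, with adjusted p from 0.0528 to 0.214. Cmpk1, which phosphorylates CMP and UMP, was lower by −0.15 in dorsal and −0.25 in medial cortex, and its dorsal call was lost under the 3 scalings, with adjusted p from 0.180 to 0.432. The repair polymerase Polb, named after its values were seen, was lower in medial cortex, by −0.19, and its dorsal change of −0.10 did not pass the threshold (adjusted p = 0.121). Its medial call was lost under the 3 scalings, with adjusted p from 0.0744 to 0.285.

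The origin recognition subunits Orc3, Orc4 and Orc5 did not pass the threshold in either region, with changes of −0.03, −0.02 and −0.04 in dorsal and −0.02, −0.04 and −0.10 in medial cortex. Their sign turned positive under median-gene rescaling and under quantile normalization, in both regions, still short of the threshold. The histone chaperone Asf1a had a change of 0.01 in dorsal and 0.03 in medial cortex (adjusted p = 0.547), and in medial cortex it passed the threshold under the 3 other scalings, at 0.11 to 0.14. Its paralog Asf1b, named here after its values were seen, was higher by 1.07 in dorsal and 0.78 in medial cortex. Pold3, Pole3 and Pole4, subunits of polymerases delta and epsilon, were likewise added after their values were seen. Pold3 was higher by 0.44 in dorsal and 0.32 in medial cortex, and Pole3 by 0.27 and 0.21. Pole4 had changes of 0.18 and 0.08 that did not pass the threshold, and its dorsal change did pass it under the 3 other scalings.

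**Figure D4:**
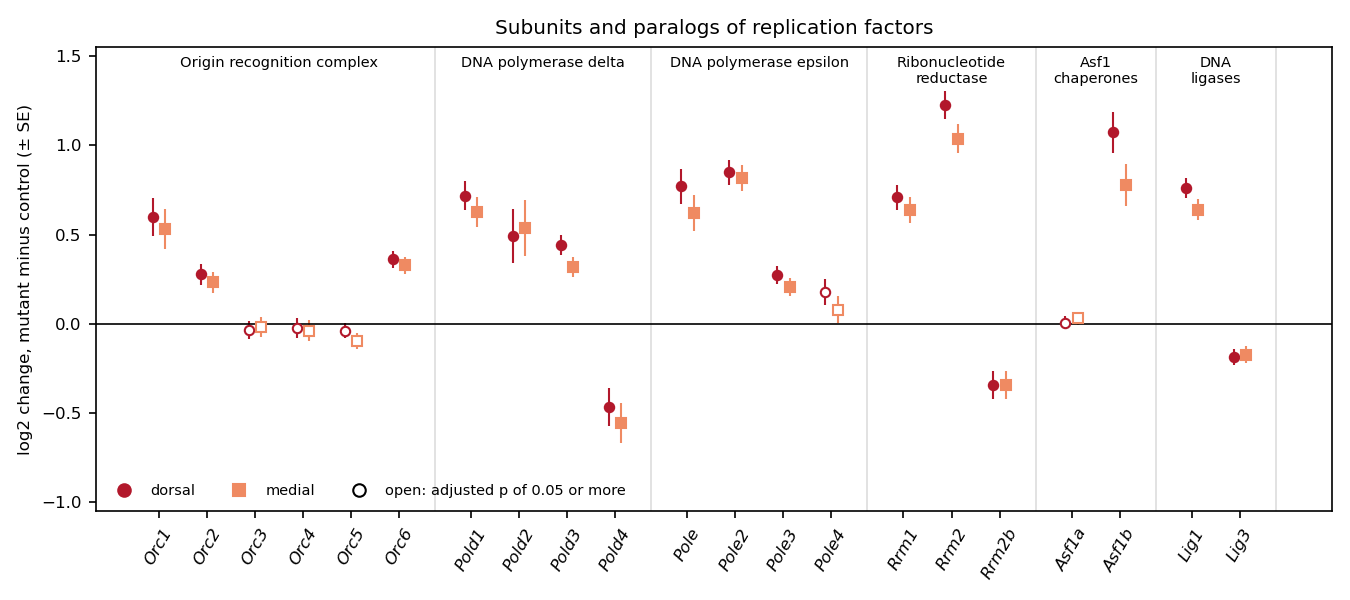
Log2 change in TPM + 1, mutant minus control (± SE), of subunits and paralogs from the 49 genes and the wider list, in dorsal cortex (circles) and medial cortex (squares), with open symbols where the adjusted p was 0.05 or more. Within ribonucleotide reductase, Rrm1 and Rrm2 lie above 0 and Rrm2b lies at −0.34, and within polymerase delta, Pold1, Pold2 and Pold3 lie above 0 and Pold4 lies at −0.47 dorsal and −0.56 medial.

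The size of the mutant change was not shown to depend on region for any of the 49 genes. The test of the difference between the medial and the dorsal mutant effect called 0 of 49 in limma, against 0.0074% of all genes, which was 1 gene. At an unadjusted p under 0.05 it gave 2 of 49 and 451 of all 13520 genes. The medial effect was the smaller for 45 of the 49 genes, with a median difference of −0.08 beside −0.02 over all genes, and the genes share libraries, so no test was made over them. In the fit without pairing, Cdc45 had the most negative difference, −0.23 (95% interval −0.45 to −0.01). Over the 49 genes the 95% intervals of that fit spanned −0.48 to 0.51, so it did not resolve differences of that size for the least precise genes.

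Replication genes were also higher in medial than in dorsal cortex without the mutation. Among controls, 40 of the 49 genes were higher in medial than in dorsal cortex, and 0 were lower. Of all genes tested, 17.6% were higher and 14.9% lower, 32.4% in all. The median change was 0.27, beside 0.01 over all genes. Libraries of the regions did not overlap for 28 of the 49, all higher, beside 11.1% of all genes higher and 9.39% lower without overlap. The 9 that missed the threshold were Orc6, Gins2, Gins4, Cdc7, Ccne2, Prim2, Pold2, Rfc3 and Rpa3. Ccne1, cyclin E1, had 26.1, 26.4, 22.4, 23.6 and 22.2 TPM in control medial libraries, against a lowest of 12.1, a median of 14.54 and a highest of 15.5 TPM in control dorsal libraries. This was the largest regional change of the 49, at 0.72 ± 0.10 (adjusted p = 9.77e-05), with no overlap. The control values of Cdt1 given above were also apart, by 0.47 ± 0.06 (adjusted p = 5.35e-05).

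Rpa2, the middle subunit of the single-strand binding protein, had 71.4, 72.5, 67.2, 74.2 and 63.7 TPM in control medial libraries, against a lowest of 51.6, a median of 53.3 and a highest of 58.5 TPM in control dorsal libraries. Mcm3 had 121, 126, 123, 117 and 122 TPM in control medial libraries, against a lowest of 91.2, a median of 96.2 and a highest of 100 TPM in control dorsal libraries. Both genes were higher in every medial than in every dorsal control library, by 0.37 ± 0.06 for Rpa2 (adjusted p = 0.000154) and 0.34 ± 0.05 for Mcm3 (adjusted p = 0.000182). Cell type markers also differed between the control regions: 8 of 10 radial glia markers were higher in medial cortex (median log2 change 0.48), 8 of 12 neuron markers lower (median −0.47) and 7 of 8 interneuron markers lower (median −0.96), beside the 17.6% of all genes higher and 14.9% lower given above. Their part in the regional change of the replication genes was not tested.

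Among mutants, 15 of 49 genes were higher in medial than in dorsal cortex, and 0 were lower. Of all genes tested, 8.03% were higher and 10.8% lower, 18.8% in all. Regions did not overlap for 4 of the 49, all higher, beside 7.11% of all genes higher and 8.05% lower without overlap. The median change of the 49 was 0.17, beside 0.00 over all genes. Dorsal and medial libraries with the same genotype and title number deviated together (r from 0.549 to 0.795 in 9 pairs). With that pairing as a fixed block the count was 25, beside 17.3% of all genes higher. As a random block it was 31, beside 18.4%. The count was 5, 30 or 6 without mutant dorsal library 2, 3 or 4, and 6 without mutant medial library 3. It was 0 when only the mutant libraries were fitted, a fit that called 0 of all 13520 genes. In mutants Ccne1 had 36.5, 34.0, 37.5 and 29.3 TPM in medial cortex, against 25.1, 17.8, 27.5 and 18.1 TPM in dorsal cortex, a change of 0.63 ± 0.12 (adjusted p = 0.00356) without overlap. Rpa2 likewise had 107, 103, 116 and 104 TPM in mutant medial libraries, against 86.0, 77.3, 98.6 and 84.5 TPM in mutant dorsal libraries, a change of 0.31 ± 0.07 (adjusted p = 0.00466). Mcm3, at 177, 196, 198 and 183 TPM in mutant medial and 162, 139, 180 and 143 TPM in mutant dorsal libraries, overlapped between the regions and changed by 0.28 ± 0.06 (adjusted p = 0.00631). Between the mutant regions 6 of 10 radial glia markers were higher in medial cortex (median 0.43), and 9 of 12 neuron markers (median −0.53) and 8 of 8 interneuron markers (median −1.41) were lower.

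Summed over the 49 genes, replication transcripts made up 5332, 4728, 5962 and 5031 TPM in mutant dorsal libraries 1 to 4, against a lowest of 2954, a median of 3113 and a highest of 3399 TPM in control dorsal libraries. In medial cortex the sum was 5526, 5892, 6234 and 5982 TPM in mutants, against 3663, 3853, 3598, 3970 and 3506 TPM in controls. Mutants were above all controls in both regions, and medial controls above all dorsal controls. Sums over neuron markers were lower in mutants without overlap, while those over radial glia and intermediate progenitor markers overlapped between the genotypes in both regions. The 10 radial glia markers summed to 2579 to 2797 TPM in mutant dorsal libraries, against 2517 to 2862 TPM in control dorsal libraries, and to 3046 to 3401 TPM in mutant medial libraries, against 3160 to 3941 TPM in control medial libraries. Of these 10 markers, 5 were higher and 2 lower in dorsal mutants, beside 9.93% and 27.6% of all genes, and 3 were higher and 1 lower in medial mutants, beside 9.44% and 30.2%. Replication TPM per radial glia marker TPM was 1.83 to 2.13 in mutant dorsal libraries, against 1.10 to 1.26 in control dorsal libraries, and 1.63 to 1.93 in mutant medial libraries, against 0.930 to 1.26 in control medial libraries. The markers were Sox2, Pax6, Hes1, Hes5, Nes, Vim, Slc1a3, Fabp7, Sox9 and Notch1. Their changes ran from −0.45 (Hes5) to 0.81 (Slc1a3) in dorsal and from −0.86 (Fabp7) to 0.73 (Slc1a3) in medial cortex. Abundant markers weigh most in the sum, so the ratio is not a measure per cell.

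The 12 neuron markers summed to 4268, 5049, 3401 and 4582 TPM in mutant dorsal libraries 1 to 4, against a lowest of 5255 and a highest of 6008 TPM in control dorsal libraries. They summed to 2457 to 3144 TPM in mutant medial libraries, against 3614 to 4645 TPM in control medial libraries. Of the 12, 8 were lower in dorsal mutants, beside 27.6% of all genes, and 9 in medial mutants, beside 30.2%, and none was higher. Under the other 3 scalings 3 to 7 were lower in dorsal, 6 to 8 in medial, and 1 was higher. Among mutant dorsal libraries the one with the highest replication sum, library 3, had the lowest neuron sum, and library 2 had the lowest replication sum and the highest neuron sum. Control dorsal libraries 1 and 4 stood in the same way. In mutant medial cortex library 3 did so too, but library 1 had the lowest replication sum and library 2 the highest neuron sum. In control medial cortex library 6 had the lowest replication and highest neuron sum, but library 5 had the highest replication sum and library 3 the lowest neuron sum. The 8 intermediate progenitor markers summed to 1118 to 1370 TPM in mutant dorsal libraries, against 1061 to 1255 TPM in control dorsal libraries, and to 1303 to 1460 TPM in mutant medial libraries, against 1296 to 1361 TPM in control medial libraries. Of these 8 markers, 4 were higher and 2 lower in dorsal mutants, beside 9.93% and 27.6% of all genes. In medial mutants 3 were higher and 1 lower, beside 9.44% and 30.2%. Of the 8 interneuron markers, 5 were lower in medial mutants, beside 30.2% of all genes, and 0 in dorsal mutants, beside 27.6%. Under the other scalings 1 to 3 were lower in medial mutants. The part of cell composition in the replication changes was not tested.

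**Figure D5:**
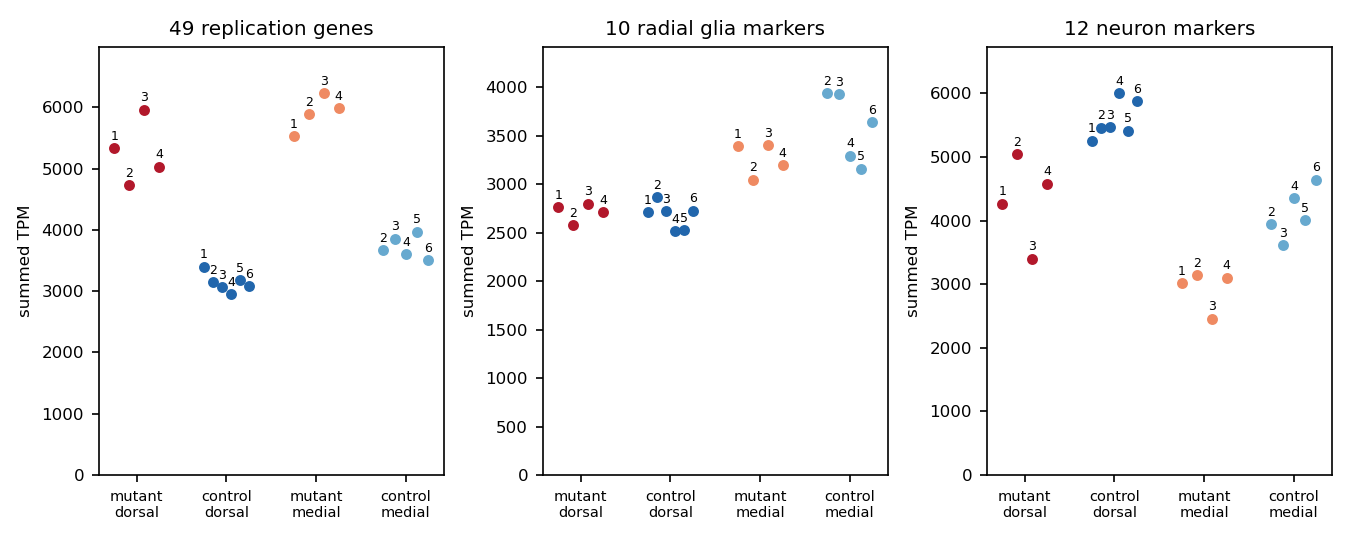
Summed TPM of the 49 replication genes, 10 radial glia markers and 12 neuron markers in every library, with library numbers as in the sample titles. Replication sums are higher in mutant (4728 to 6234 TPM) than in control libraries (2954 to 3970 TPM), radial glia sums of the genotypes overlap within a region, and neuron sums are lower in the mutants of each region.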

How the data were processed

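The deposited values are TPM per gene and library, computed by the authors from total RNA prepared with a stranded kit per the labels' protocols, on genome build mm10 per the submitters' processing notes; the sources used here name no aligner, counting tool or strand setting, and the read depth behind each TPM value is unknown. Tested genes reached 1 TPM in 4 or more of the 19 libraries and were analysed on log2(TPM + 1) with limma 3.58.1 (R 4.3.3, trended robust empirical Bayes, 1 mean per group), with Benjamini-Hochberg adjustment per comparison and a threshold of 0.05. Fold changes on this scale understate those of low genes. Exact permutation tests used scipy 1.17.1. Of the steps, only the limma fit was tested on simulated data, with independent noise in each library. Alternatives were other pseudocounts, filters, scalings, models, replicate blocks, a sex covariate and leaving out each library. The members, pairs and lists were chosen with earlier results of these data known. Values by library (for control dorsal libraries the lowest, median and highest) are given for the members with the largest and smallest dorsal change in each role, and the 4 with the smallest adjusted p between control regions, and for Pold2 and Cdc7, added after their values were seen. Of the wider list, Pclaf was present under an older symbol and not counted, and Dbf4b was not analysed here; 1 gene of that list that the naming rule picked is not reported here. Endothelial, pericyte, microglia, erythroid, meningeal fibroblast and choroid plexus markers were also summed: summed TPM of the genotypes overlapped within each region in all of these lists except endothelial, pericyte and microglia markers in dorsal cortex, which were lower in mutants. The pairing of dorsal and medial libraries of a genotype by title number rests on the check described above. The labels do not state it, and their description field numbers the medial controls differently from the titles. Libraries of the same genotype and different number were not compared in that check. Mutants and controls of the same number deviated with r from −0.436 to 0.138, so no pairing was used there.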

Additional observations from a re-analysis of the deposited data

Results flagged for a closer look

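Among 80 sets of libraries (19 genes with values in every library, and the summed TPM of the 49 genes, in 4 groups), 9 held a library that stood far from the rest of its group, where chance gives about 1 in 20. Mutant dorsal library 3 was high for Rrm2, at 356 TPM against 284 to 294 TPM in the others, and for Chaf1a, at 112 TPM against 86.6 to 90.6 TPM. Control dorsal library 1 was high for Cdt1, at 41.4 TPM against 37.8 to 39.0 TPM, for Lig1, at 57.9 TPM against 48.5 to 49.8 TPM, and for Rrm1, at 209 TPM against 174 to 186 TPM. Mutant medial library 2 was high for Prim2, at 68.8 TPM against 58.8 to 59.95 TPM, and mutant medial library 1 was low for Lig1, at 88.0 TPM against 97.8 to 99.0 TPM. Control medial library 5 was high for Rrm2, at 181 TPM against 142 to 150 TPM, and control medial library 6 was low for Orc2, at 71.3 TPM against 76.6 to 77.7 TPM. Each of these libraries still lay on its genotype's side of the other genotype in its region.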

How the results depend on the processing

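The counts of 49 higher genes in dorsal and in medial mutants held at 47 to 49 under all other settings run, and at 48 to 49 when any 1 library was left out. The count for the regional difference of the mutant effect stayed at 0 throughout. The 40 genes higher in medial controls ranged from 35 to 40 when 1 library was left out, and 42 with either replicate block. With the fixed and the random block 26.1% and 26.5% of all genes were higher in medial controls. The 15 genes higher in medial mutants numbered 9 without the filter on low values, beside 3.47% of all genes. They numbered 0 with only the groups compared, where 0 of 13520 genes were called. With the paired libraries as a fixed and a random replicate block they numbered 25 and 31, beside 17.3% and 18.4% of all genes. When 1 library was left out they numbered 5 to 30. The cause was not tested. The replicate block changed no other count by over 1.5 times. The 15 partner ratios numbered 0 to 18 when 1 library was left out, where fewer libraries also raise the smallest p the test can give; it was 0 without mutant dorsal library 2 or 3, and 8 without control medial library 4 or 6 or any mutant medial library.

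Signs turned only among values that had not passed the threshold. In dorsal cortex, under median-gene rescaling, quantile normalization and scaling without histone genes, Orc3 was at 0.0573, 0.0445 and 0.0404, Orc4 at 0.0676, 0.0652 and 0.0509, and Orc5 at 0.0523, 0.0438 and 0.0356. In medial cortex, in the same order, Orc3 was at 0.0847, 0.0747 and 0.0563, and Orc4 at 0.0632, 0.0725 and 0.0351, while Orc5 was at 0.00662 and 0.0115 under the first and second. Asf1a was at −0.0221 in dorsal and −0.00456 in medial cortex with the sex covariate. With 1 library left out, Orc4 ranged from −0.0463 to 0.00895, Asf1a from −0.0107 to 0.0284 and Chaf1b/Chaf1a from −0.0939 to 0.0285 in dorsal cortex. In medial cortex Orc3 ranged from −0.0388 to 0.0147, Pola2/Pola1 from −0.0745 to 0.0522, Pold1/Pold2 from −0.00675 to 0.167 and Chaf1b/Chaf1a from −0.144 to 0.0461. The cause was not tested. The lack of read depth leaves the counting error of each TPM value unknown, and groups of 4 to 6 libraries limit the precision.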
